A study of Mus musculus with 26 samples.

Results

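RNA levels of 10 transcription factor genes of naive pluripotency were examined in mouse embryonic stem cells that carried a knockout of Hmces (HMCES-KO) and in wild-type (WT) cells. The genes were Klf2, Klf4, Klf5, Esrrb, Tfcp2l1, Tbx3, Prdm14, Zfp42, Nr0b1 and Nr5a2. They were chosen by name as members of the naive network, with earlier results of these data known. Each was found by its symbol in all 6 deposited tables. They make up 10 of the 25239 genes of the count table. Each passed the expression filter of each comparison, so no member was lost to low values.

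Embryonic stem cells keep a naive state, like that of the early epiblast, through a small network of transcription factors that sit around the core factors OCT4 (the product of Pou5f1), SOX2 and NANOG. Signals feed the network at different points: LIF acts through STAT3 on Klf4 and Tfcp2l1, Wnt signalling relieves repression of Esrrb and Klf2 by TCF7L1, and FGF and ERK signalling destabilises KLF2 and weakens the network as a whole. KLF2, KLF4 and KLF5 bind overlapping DNA sites and can in part replace each other, PRDM14 holds back DNA methyltransferases and FGF receptors, and NR5A2 and ESRRB are nuclear receptors that recognise closely related sequences.

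The cells were mouse embryonic stem cells of the C57BL/6 strain, per the labels, and were grown on gelatin in medium with 15% serum. The treated groups were HMCES-KO and WT cells after 2 h with activin A at 50 ng/ml, a ligand that activates SMAD2 and SMAD3, with SB431542 at 10 µM, which blocks the receptors of activin, with BMP4 at 10 ng/ml, a ligand that activates SMAD1 and SMAD5, or with LDN193189 at 50 nM, which blocks BMP receptors. Each treated table held 1 library of the knockout line KO2, 1 of the line KO1 and 2 of WT. The untreated cells came as a count table, with 2 libraries of the line KO8, 2 of the line KO7 and 2 of WT, and as a separate TPM table with 2 HMCES-KO and 2 WT libraries. How KO8 and KO7 correspond to KO2 and KO1 is not stated, nor is the line behind the untreated TPM libraries, whose knockout columns are named K81 and K82 and whose WT columns are named CCE. The labels do not say whether the libraries of a group were grown apart, so each p-value reflects library-to-library spread, and that spread may be technical. For HMCES-KO against WT within a treated table, the spread also holds the difference between KO2 and KO1. In the count table KO8 and KO7 were separate groups, so numbers of calls do not compare directly between these tables.

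Libraries of the count table held about 9571110 to 13512900 reads each, and those recovered from TPM came to 8524110 to 10037100 reads in an untreated library and 4120160 to 5544420 reads in a treated one. Hmces RNA, the check of the targeted gene, stood at 24.9% to 26.5% of the WT mean in KO8, 38.1% to 38.8% in KO7, 21.2% to 22.1% in the untreated TPM table, 25.0% to 34.0% in KO2 and 51.7% to 64.1% in KO1. The 7 embryonic stem cell markers fixed for this check, among them Pou5f1, Sox2 and Nanog, were present in each table, with summed levels of 6652 to 6968 CPM (counts scaled to library size) in the knockout libraries and 7042 to 7105 CPM in WT of the count table, and with higher sums in the knockout libraries than in WT in each treated table (16699 to 18491 TPM over the knockout libraries and 15782 to 17507 TPM over WT). In the untreated TPM table the sums overlapped, at 9502 to 9780 TPM in HMCES-KO and 9660 to 9792 TPM in WT. Markers of several other cell types moved with genotype, and the called markers are to be read beside the 40.6% of all genes called in the mean of both knockout lines, 16% in the untreated TPM table and 34.5% in the mean of the treated tables. The 14 markers of primitive and visceral endoderm summed to 361 to 388 CPM in the knockout libraries and 758 to 811 CPM in WT, and 14 of 14 fell in the mean of both knockout lines (edgeR). Among the untreated TPM libraries they summed to 262 to 265 TPM (a level scaled to gene length and library size) in HMCES-KO and 341 to 359 TPM in WT, with 3 of 11 tested genes lower, and 7 of 14 were lower when the treated tables were averaged (limma). The 5 neuroectoderm markers summed to 234 to 314 CPM in the knockout libraries and 159 to 175 CPM in WT, with 5 of 5 higher, and the 6 germ line markers to 74.1 to 129 CPM in the knockout libraries and 134 to 143 CPM in WT, with 4 of 6 lower. The 7 feeder fibroblast markers summed to 234 to 399.9 CPM in the knockout libraries and 240.2 to 271 CPM in WT of the count table, and to 529 to 546 TPM in HMCES-KO and 447 to 457 TPM in WT of the untreated TPM table. The 4 of them in the treated tables summed to 627 to 885 TPM over the knockout libraries and 534 to 664 TPM over WT. These sums were higher in the knockout libraries than in WT in the untreated TPM table and in each treated table. In the count table they overlapped. By gene, of 4 feeder markers tested in the mean of both knockout lines, 1 was higher and 3 lower (edgeR, median -1.45). Of 3 tested, 1 was higher and 1 lower in the untreated TPM table (median -0.21) and in the treated mean (median -0.27, limma). The sums therefore do not give the direction of most of these markers. Of the feeder markers Postn was at 0 in each library of both untreated tables, and the 2-cell marker genes Tcstv1 and Tcstv3 at 0 in each library of both untreated tables. The part of these cell types in the member results was not tested, and in bulk RNA fewer cells of a type and less RNA per cell cannot be told apart.

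Promoter sequences from RefSeq, on build GRCm38.p6, were found for 7 of the 10 genes. The 250 bases before the start site are shown for Klf2 and Klf4, which moved in opposite directions in each table, for Zfp42, which lies on the same chromosome as Klf2, and for Tfcp2l1, whose direction differed between tables. The Klf2 window is chr8:72318812-72319061 on the plus strand, the Klf4 window chr4:55532476-55532725 on the minus strand, the Zfp42 window chr8:43307010-43307259 on the minus strand and the Tfcp2l1 window chr1:118627695-118627944 on the plus strand. Each is written 5′ to 3′ on the gene's strand, and capitals mark a match to a searched motif.
Klf2: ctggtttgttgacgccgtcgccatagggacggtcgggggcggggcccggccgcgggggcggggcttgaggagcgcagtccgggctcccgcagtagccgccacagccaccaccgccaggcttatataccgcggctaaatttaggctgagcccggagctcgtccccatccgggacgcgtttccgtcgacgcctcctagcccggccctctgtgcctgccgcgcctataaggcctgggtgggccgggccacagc
Klf4: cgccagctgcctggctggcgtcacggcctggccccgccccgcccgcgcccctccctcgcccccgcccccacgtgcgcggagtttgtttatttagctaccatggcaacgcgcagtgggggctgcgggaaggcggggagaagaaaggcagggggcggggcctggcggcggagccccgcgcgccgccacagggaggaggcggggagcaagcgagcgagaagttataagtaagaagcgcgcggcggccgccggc
Zfp42: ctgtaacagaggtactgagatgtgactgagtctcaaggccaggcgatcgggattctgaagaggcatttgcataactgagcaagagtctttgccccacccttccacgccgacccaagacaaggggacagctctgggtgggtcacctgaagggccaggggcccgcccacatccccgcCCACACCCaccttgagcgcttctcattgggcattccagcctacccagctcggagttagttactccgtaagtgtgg
Tfcp2l1: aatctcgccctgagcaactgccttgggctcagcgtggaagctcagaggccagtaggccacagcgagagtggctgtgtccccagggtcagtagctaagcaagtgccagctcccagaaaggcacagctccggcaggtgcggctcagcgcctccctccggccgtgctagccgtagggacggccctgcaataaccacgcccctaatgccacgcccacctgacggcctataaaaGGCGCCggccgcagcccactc
The motifs searched on both strands, over 300 bases that run on to 50 bases past the start, were TCAAGGTCA for ESRRB and NR5A2, GGGTGTGG for KLF factors, TTCCNGGAA for STAT3, and GTCTAGAC and GGCGCC for SMAD factors. The Zfp42 promoter held the KLF motif at -75 from its start (capitals above), a motif found in 3.56% of the 32851 mouse promoters searched. The Tfcp2l1 promoter held GGCGCC at -21 from its start, and 1 of the 2 Esrrb promoters held it at 18 past its start, a motif found in 11.9% of promoters. The other members' windows, Klf2 and Klf4 included, held no match. TCAAGGTCA occurred in 0.423%, TTCCNGGAA in 1.15% and GTCTAGAC in 0.213% of all promoters.

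In WT cells of the untreated TPM table, the only untreated table that gives levels per gene length, Zfp42 was the most abundant member, at 1627 ± 13.2 TPM (SD, n = 2, as for the other levels here). Esrrb followed at 873 ± 4.35 TPM, Klf5 at 561 ± 17.0 TPM, Klf2 at 430.2 ± 9.50 TPM, Nr0b1 at 328 ± 28.8 TPM and Tfcp2l1 at 302 ± 6.15 TPM. Klf4 stood at 269.9 ± 10.8 TPM, Tbx3 at 215 ± 1.81 TPM, Nr5a2 at 103 ± 2.91 TPM and Prdm14 at 52.2 ± 1.93 TPM. Nr0b1 and Tfcp2l1 differed by less than the spread between the Nr0b1 libraries, and the other neighbours in this order were farther apart than their spread. Zfp42 was above 99.8% and Prdm14 above 66.1% of the 13314 genes tested in that table.

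Members differed between HMCES-KO and WT cells in a mix of directions, and the number called depended on the table and the fit. In KO8, 6 of 10 members were called at an adjusted p under 0.05, 3 higher and 3 lower, where 38.9% of all 13475 genes tested were called (edgeR). In KO7, 9 were called, 6 higher and 3 lower, against 38.2% of all genes, but 4 without KO7 replicate 1 and 5 without KO7 replicate 2. The mean of both lines, which rests on the same WT libraries, called 7, with 4 higher and 3 lower, against 40.6% of genes. Only Klf2, Klf4 and Nr0b1 were called when the 4 knockout libraries were taken as 1 group, so that the difference between lines counted as spread. The untreated TPM table gave calls for 6, with 1 higher and 5 lower, against 16% of 13314 genes (limma on log2(TPM + 1)), and 2 without limma's trended prior. The median member difference was 0.10 in the mean of both lines and -0.22 in the untreated TPM table, beside medians of -0.01 and -0.06 over all genes tested.

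After treatment, 4 members were called under activin A, 1 higher and 3 lower, against 12.1% of 12608 genes (limma). The count was 7 with the replicate block, which pairs libraries of the same knockout line. Under SB431542 5 were called, 2 higher and 3 lower, also against 12.1%, but 2 without WT replicate 1 or without the KO2 library and 3 without WT replicate 2. BMP4 gave 3 calls, 1 higher and 2 lower, against 6.33% of genes, and 1 without either WT library or without the KO2 library. LDN193189 gave 3, with 2 higher and 1 lower, against 2.29%, and 1 without either WT library. The mean over treatments called 7 members, 2 higher and 5 lower, against 34.5% of genes, with 3 from the BMP4 and LDN193189 tables alone and 9 with the replicate block, which added Esrrb and Zfp42. The block takes the mean difference between KO2 and KO1 out of the spread. Esrrb was at -0.36 in KO2 and 0.02 in KO1, and Zfp42 at -0.11 and 0.27, so neither added call held in both lines. The mean, and each comparison of KO2 or KO1 over the 4 tables, also takes libraries of 1 line under different treatments as separate. By line, KO2 gave 9 calls, 2 higher and 7 lower, against 28.9%, and KO1 gave 7, with 3 higher and 4 lower, against 32.7%. The median member difference over the 4 tables was -0.27, beside -0.04 over all genes tested.

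**Figure D1:**
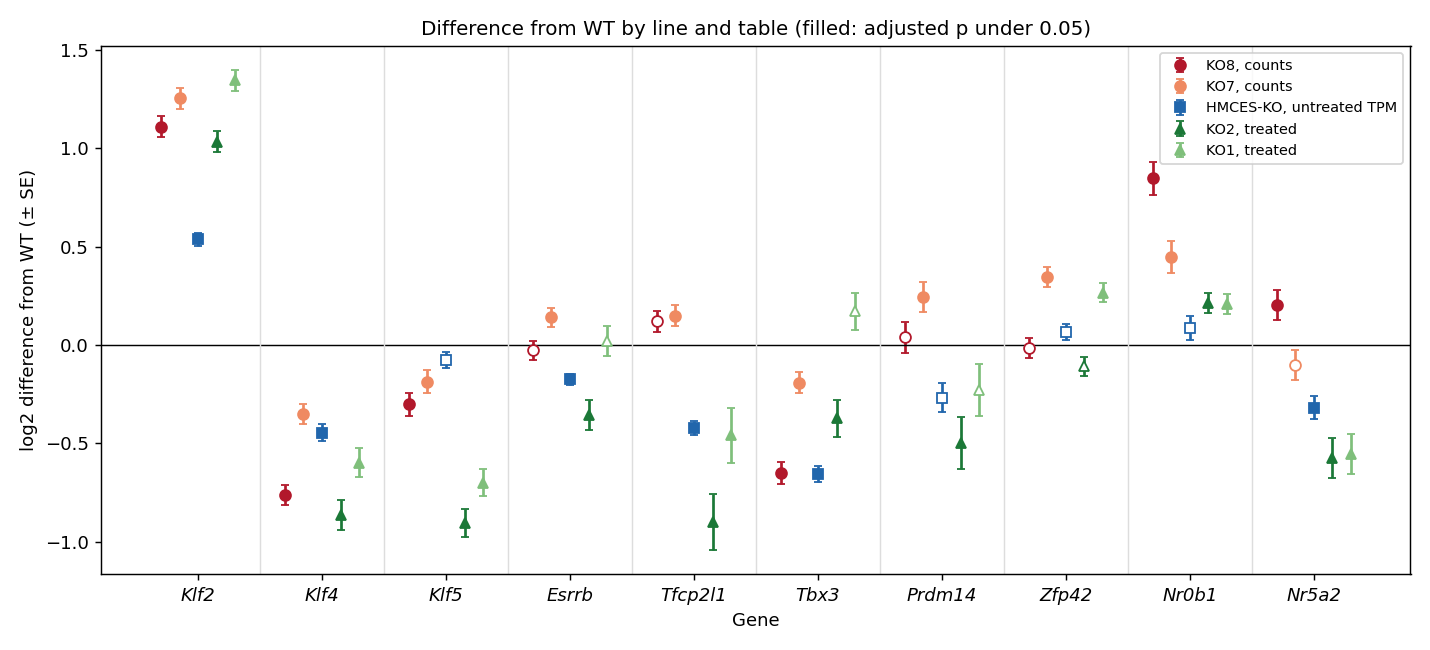
Log2 difference from WT (vertical axis) for each of the 10 genes (horizontal axis) in KO8 and KO7 of the count table, in HMCES-KO of the untreated TPM table, and in KO2 and KO1 over the 4 treated tables; bars are SE, and filled symbols passed an adjusted p of 0.05. Klf2 was above 0 and Klf4 below 0 in each of the 5 comparisons, while Tfcp2l1 and Esrrb lay on both sides of 0.

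The KLF factors showed the clearest pattern: all 14 knockout libraries were above every WT library beside them for Klf2 and below every one for Klf4. Across all genes tested, the knockout and WT libraries did not overlap for 41.9% of genes in the count table, 62.5% in the untreated TPM table, and 58.0%, 57.7%, 51.4% and 45.5% under activin A, SB431542, BMP4 and LDN193189. Klf2, a factor that MEK and ERK signalling removes from the cell, had 758 and 758.5 CPM in KO8 and 826 and 849 CPM in KO7, against 339 and 364 CPM in WT. In the untreated TPM table it had 623 and 627 TPM in HMCES-KO cells, against 424 and 437 TPM in WT cells. No knockout library came near the WT values in either table, and the gap was smaller in the TPM table. The log2 difference was 1.11 ± 0.05 (SE, as for all differences below) in KO8 (edgeR adjusted p = 5.8e-12), 1.25 ± 0.05 in KO7 (adjusted p = 1.8e-12) and 0.54 ± 0.03 in untreated cells of the TPM table (adjusted p = 0.0013 with limma), which are 2.16-fold, 2.38-fold and 1.45-fold.

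Under treatment, with TPM rescaled to the 12928 genes shared by the treated tables, Klf2 had 2223 TPM in KO2 and 2591 TPM in KO1, against 1072 and 1044 TPM in WT, with activin A. With SB431542 it had 2247 TPM in KO2 and 2842 TPM in KO1, against 1002 and 961 TPM in WT. With BMP4 it had 2539 TPM in KO2 and 3234 TPM in KO1, against 1295 and 1449 TPM in WT, and with LDN193189 2794 TPM in KO2 and 3539 TPM in KO1, against 1446 and 1400 TPM in WT. KO1 was the highest library of each table and the WT libraries the lowest. Klf2 was called in each of the 4 tables (limma adjusted p = 0.00018 to 0.0023), by 1.03 ± 0.05 in KO2 (adjusted p = 4.6e-09) and 1.34 ± 0.05 in KO1 (adjusted p = 1.1e-10). The LDN193189 call was lost when that table was fitted alone (adjusted p = 0.084).

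Klf4, a target of LIF and STAT3, had 292 CPM in both KO8 libraries and 381 and 395 CPM in KO7, against 499.8 and 489 CPM in WT. The untreated TPM table gave 197 and 199 TPM in HMCES-KO cells, against 278 and 262 TPM in WT cells. The knockout libraries lay below the WT libraries in both tables, and KO8 lay below KO7. Klf4 fell by 0.76 ± 0.05 in KO8 (edgeR adjusted p = 1.1e-09), by 0.35 ± 0.05 in KO7 (adjusted p = 2.2e-05) and by 0.45 ± 0.04 in the untreated cells of the TPM table (adjusted p = 0.0046 with limma, and 0.059 without a trended prior).

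With activin A, Klf4 had 453 TPM in KO2 and 567 TPM in KO1, against 1051 and 959 TPM in WT, and with SB431542 569 TPM in KO2 and 715 TPM in KO1, against 1105 and 994 TPM in WT. With BMP4 it had 400.0 TPM in KO2 and 532 TPM in KO1, against 761 and 732 TPM in WT, and with LDN193189 499 TPM in both lines, against 728 and 710.1 TPM in WT. The fall was called under activin A (-0.99 ± 0.14, limma adjusted p = 0.001), SB431542 (-0.72 ± 0.14, adjusted p = 0.0067) and BMP4 (-0.69 ± 0.14, adjusted p = 0.013), while LDN193189 gave -0.53 ± 0.14 (adjusted p = 0.076). With the replicate block the LDN193189 value was called too (adjusted p = 0.0054). The SB431542 call was lost without WT replicate 1 (adjusted p = 0.066) or KO2 (0.061), and the BMP4 call without WT replicate 1 (0.099), WT replicate 2 (0.079) or KO2 (0.092).

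Klf5, which supports self-renewal and blocks entry into primitive endoderm in mice, was lower in 14 of 14 knockout libraries than in WT, by amounts that differed between tables. It had 239.5 and 229 CPM in KO8 and 242 and 266 CPM in KO7, against 280.4 and 297 CPM in WT, and 548 and 517 TPM in untreated HMCES-KO cells, against 549 and 573 TPM in WT cells. Among the untreated TPM libraries the nearest libraries of the groups were almost level. Klf5 fell by 0.30 ± 0.06 in KO8 (edgeR adjusted p = 0.00055) and by 0.19 ± 0.06 in KO7 (adjusted p = 0.018, and 0.35 without KO7 replicate 1), and the untreated TPM difference was -0.08 ± 0.04 (limma adjusted p = 0.27).

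The treated tables showed a larger gap in Klf5, with 638 to 909 TPM over the 8 knockout libraries and 1079 to 1585 TPM over the 8 WT libraries. It fell in each table, by 1.07 ± 0.11 under activin A (limma adjusted p = 0.00019), 0.83 ± 0.11 under SB431542 (adjusted p = 0.00089), 0.60 ± 0.11 under BMP4 (adjusted p = 0.01) and 0.72 ± 0.11 under LDN193189 (adjusted p = 0.0082). The BMP4 call was lost without either WT library (adjusted p = 0.081 and 0.069) or KO2 (0.066), and the LDN193189 call without either WT library (0.06 and 0.08). The summed TPM of Klf2, Klf4 and Klf5 was 1368 and 1343 in untreated HMCES-KO cells, against 1250.1 and 1272 in WT cells, and Klf2 made up 45.6% and 46.7% of it in HMCES-KO cells, against 33.9% and 34.3% in WT cells. These sums were chosen after the values were seen and were not tested. Under treatment Klf2 made up 61.1% to 73.2% of the sum in the 8 knockout libraries, against 27.1% to 44.5% in the 8 WT libraries. The most abundant of the 3 factors was Klf2 in each treated knockout library. In WT it was also Klf2 under BMP4 and LDN193189, but Klf5 under activin A and SB431542.

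**Figure D2:**
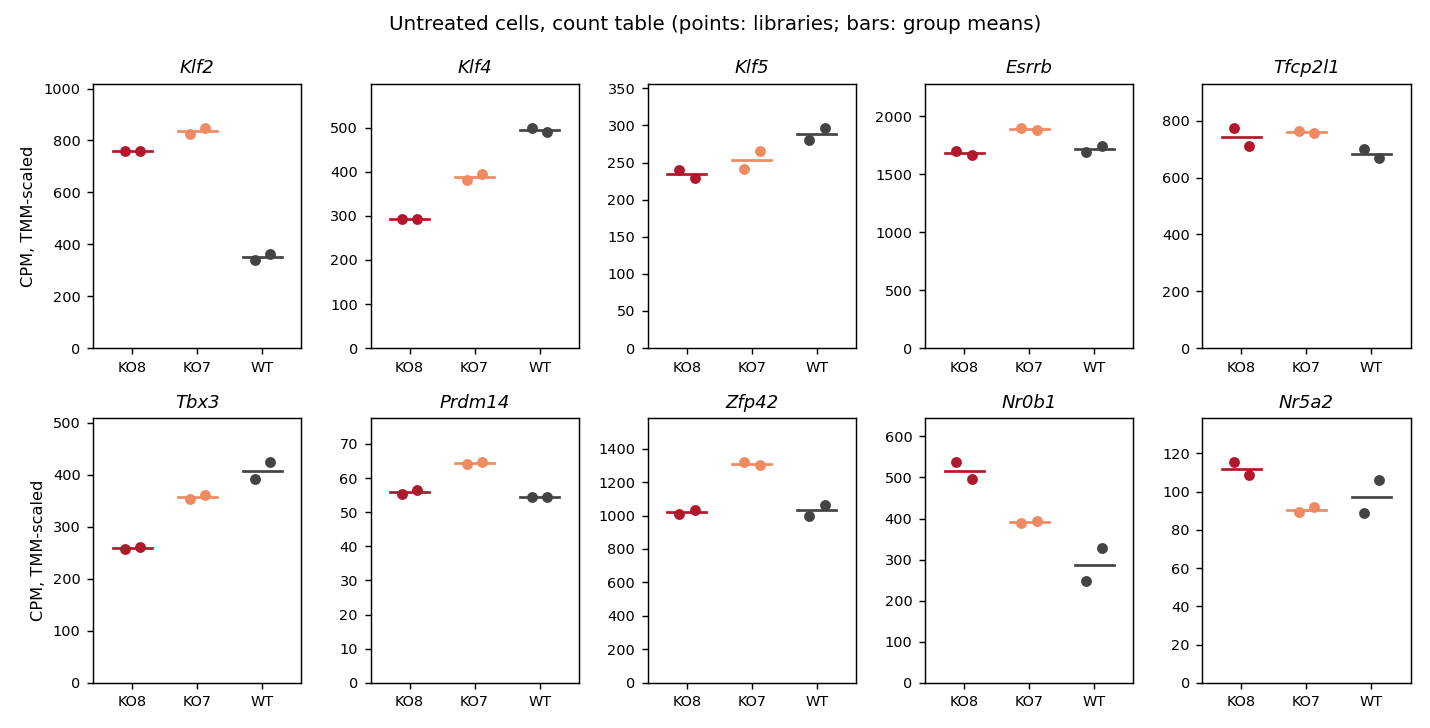
TMM-scaled CPM (vertical axes, from 0) of the 10 genes in untreated KO8, KO7 and WT libraries of the count table; points are libraries and bars group means, with 2 libraries a group. Klf2 sits at 758 to 849 CPM in the knockout libraries and 339 to 364 CPM in WT. The largest log2 steps between the knockout lines are in Tbx3, Klf4, Nr0b1 and Zfp42.

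Esrrb, Tfcp2l1 and Tbx3 carry the Wnt and LIF inputs of the network, and their direction depended on the table or the line. Esrrb had 1701 and 1669 CPM in KO8 and 1902 and 1883 CPM in KO7, against 1691 and 1744 CPM in WT. KO8 overlapped WT and KO7 was above it. Its difference was -0.03 ± 0.05 in KO8 (edgeR adjusted p = 0.69) and 0.14 ± 0.05 in KO7 (adjusted p = 0.025, and 0.059 to 0.17 without any 1 of the 4 knockout libraries). In the untreated TPM table Esrrb was lower, with 773 and 774 TPM in HMCES-KO cells, against 870.2 and 876 TPM in WT cells (-0.17 ± 0.03, limma adjusted p = 0.016, and 0.098 and 0.11 without WT replicate 1 or 2).

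Esrrb in treated cells split the knockout lines and the tables. KO2 had 263 TPM and KO1 332 TPM under activin A, against 389 and 382 TPM in WT, and KO2 had 290.0 TPM and KO1 327 TPM under SB431542, against 383 and 387 TPM in WT. Under BMP4 KO2 had 255 TPM and KO1 356 TPM, against 307 and 316 TPM in WT, and under LDN193189 KO2 had 269 TPM and KO1 384 TPM, against 303 and 307 TPM in WT. KO2 was the lowest library in each table, whereas KO1 was below WT in 2 tables and above WT in the other two. Esrrb fell in KO2 by 0.36 ± 0.08 (limma adjusted p = 0.0024), and KO1 gave 0.02 ± 0.08 (adjusted p = 0.87). The mean of the 4 tables was -0.17 ± 0.08 (adjusted p = 0.14), and passed with the replicate block (0.0075) and without KO1 of the BMP4 (0.037) or LDN193189 table (0.03).

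Tfcp2l1, which links LIF and STAT3 to the network, was slightly above WT in the count table and below WT in the other tables. It had 775 and 712 CPM in KO8 and 763 and 756 CPM in KO7, against 702 and 667 CPM in WT. The mean of both lines rose by 0.13 ± 0.05 (edgeR adjusted p = 0.027), a call lost without either KO7 library (0.093 and 0.077), without KO8 replicate 1 (0.15) and with the knockout libraries as 1 group (0.17). Among the untreated TPM libraries it had 224 and 226 TPM in HMCES-KO cells, against 306 and 297 TPM in WT cells, and fell by 0.42 ± 0.04 (limma adjusted p = 0.0038, and 0.059 without a trended prior).

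Few reads of Tfcp2l1 were found in treated cells of either genotype. It had 2.64 to 4.25 TPM in KO2 and 4.28 to 5.49 TPM in KO1, against 5.64 to 8.80 TPM over the 8 WT libraries, and these levels rested on 46 to 142 recovered reads per library, against 6212 to 9394 in the untreated TPM table. The WT mean was above 28.6% to 34.9% of the genes tested in the treated tables and above 95.4% of those in the untreated TPM table. The gene length implied by the treated tables was 0.93 times that of the count table, so the gap was present in reads and not only in the length scaling. Untreated and treated cells were never in 1 table, so treatment and table cannot be told apart. Over the 4 treated tables Tfcp2l1 fell by 0.90 ± 0.14 in KO2 (limma adjusted p = 0.00024) and by 0.46 ± 0.14 in KO1 (adjusted p = 0.02, and 0.1 without KO1 of the SB431542 table), and no single table passed (adjusted p = 0.076 to 0.27).

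Tbx3, a T-box factor that responds to LIF signalling and guards against differentiation, had 257 and 261 CPM in KO8 and 353 and 360.2 CPM in KO7, against 391 and 424 CPM in WT. In the untreated TPM table it had 138 and 134 TPM in HMCES-KO cells, against 213 and 216 TPM in WT cells. The untreated knockout libraries were all below WT. Tbx3 fell by 0.65 ± 0.06 in KO8 (edgeR adjusted p = 2.2e-08), by 0.19 ± 0.05 in KO7 (adjusted p = 0.0087, and 0.14 and 0.071 without either KO7 library) and by 0.65 ± 0.04 in untreated cells of the TPM table (adjusted p = 0.0013 with limma).

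In treated cells Tbx3 had 80.1 to 131 TPM in KO2 and 114 to 214 TPM in KO1, against 105 to 170.1 TPM over the 8 WT libraries. KO2 was the lowest library in each table, while KO1 was above both WT libraries under BMP4 and LDN193189. It fell by 0.37 ± 0.09 in KO2 (limma adjusted p = 0.0074), KO1 gave 0.17 ± 0.09 (adjusted p = 0.17, and 0.24 with an adjusted p of 0.024 under edgeR on recovered reads), and the mean of the 4 tables was -0.10 ± 0.12 (adjusted p = 0.56).

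Prdm14 and Zfp42 also differed in direction between tables or lines. Prdm14 had 55.4 and 56.4 CPM in KO8 and 64.1 and 64.6 CPM in KO7, against 54.4 CPM in both WT libraries, and 41.2 and 45.2 TPM in untreated HMCES-KO cells, against 53.5 and 50.8 TPM in WT cells. Thus it was above WT in the count table and below WT in the TPM table. It rose in KO7 by 0.24 ± 0.08 (edgeR adjusted p = 0.016, 0.092 and 0.096 without either KO7 library, and 0.07 with DESeq2). KO8 gave 0.04 ± 0.08 (adjusted p = 0.72), and untreated cells of the TPM table gave -0.27 ± 0.07 (adjusted p = 0.062 with limma, and 0.039 without HMCES-KO replicate 2). Over the treated tables it had 34.5 to 62.2 TPM in KO2 and 30.8 to 83.4 TPM in KO1, against 36.4 to 91.7 TPM in WT, and the mean fell by 0.36 ± 0.12 (limma adjusted p = 0.038). That call was lost without any 1 of 11 of the 16 libraries (adjusted p = 0.052 to 0.086) and under edgeR on the recovered reads (0.059). In KO2 alone Prdm14 fell by 0.50 ± 0.13 (adjusted p = 0.0098, and 0.069 without KO2 of the SB431542 table).

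Zfp42 encodes REX1, the marker most often used to report the naive state. It had 1012 and 1032 CPM in KO8 and 1317 and 1303 CPM in KO7, against 999 and 1065 CPM in WT, so KO8 overlapped WT and KO7 was above it. The difference was -0.01 ± 0.05 in KO8 (edgeR adjusted p = 0.85), and it rose by 0.34 ± 0.05 in KO7 (adjusted p = 2.1e-05). The mean of both lines was 0.16 ± 0.04 (adjusted p = 0.0051), and 0.38 was the adjusted p with the knockout libraries as 1 group. Among the untreated TPM libraries it had 1769 and 1642 TPM in HMCES-KO cells, against 1617 and 1636 TPM in WT cells (0.07 ± 0.04, limma adjusted p = 0.3, and 0.003 with edgeR on recovered reads). The mean of the treated tables was 0.08 ± 0.08 (limma adjusted p = 0.48, and 0.043 with the replicate block). Under treatment Zfp42 rose in KO1 by 0.27 ± 0.05 (limma adjusted p = 0.00047), with KO1 the highest library of each table at 6267 to 8366 TPM, against 5543 to 6726 TPM over the WT libraries. KO2 had 4717 to 6824 TPM and a difference of -0.11 ± 0.05 (adjusted p = 0.097, and 0.029 without KO2 of the LDN193189 table).

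**Figure D3:**
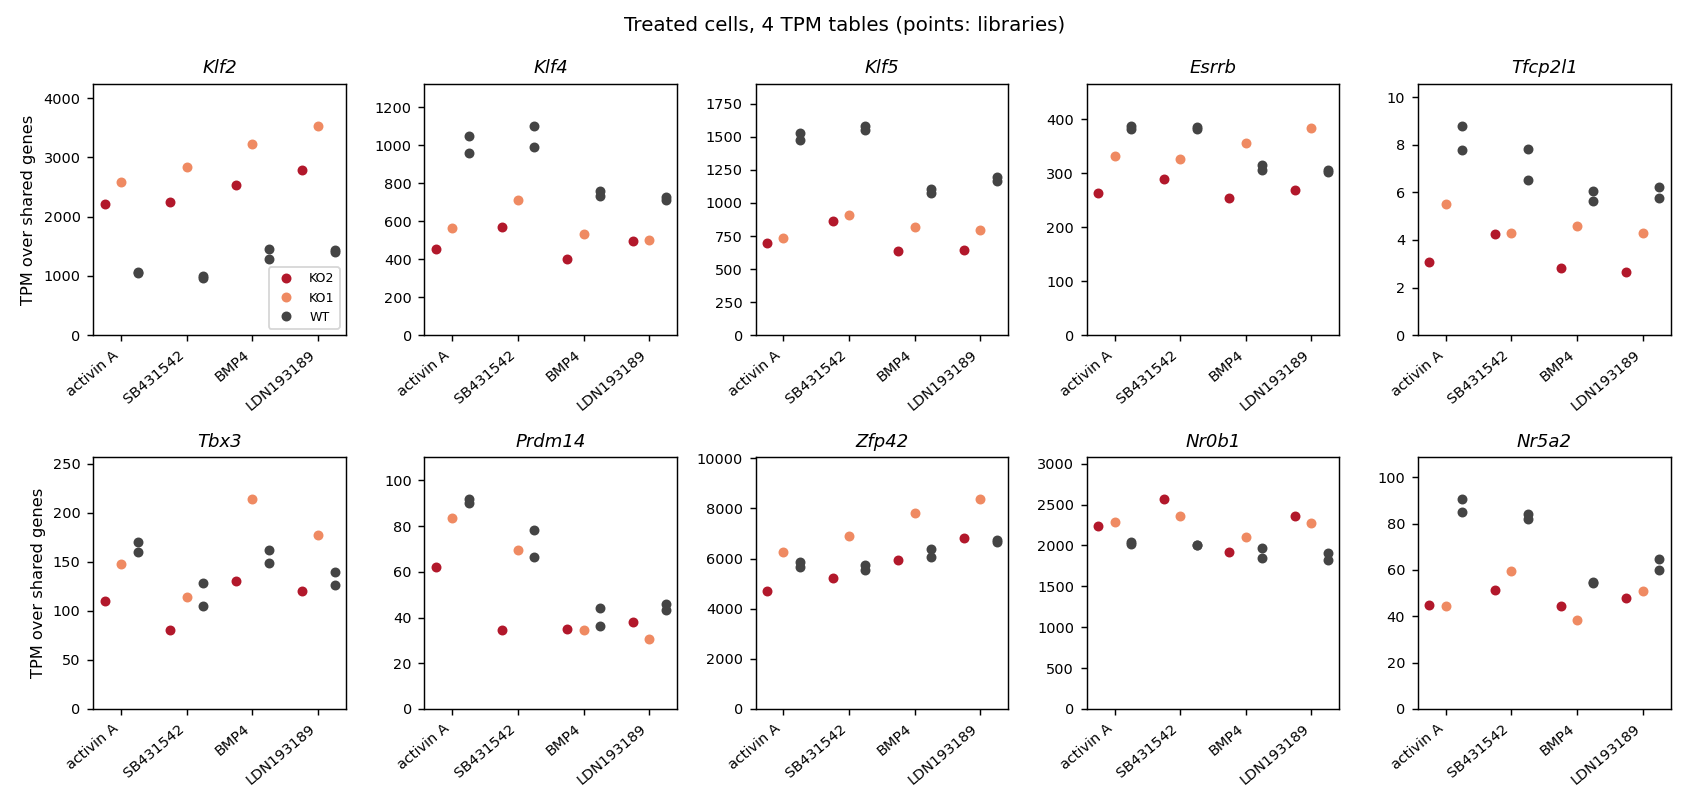
TPM over the 12928 genes shared by the 4 treated tables (vertical axes, from 0) of the 10 genes in KO2, KO1 and WT libraries (colours, points are libraries) by treatment (horizontal axes). Klf2 is above and Klf4 and Klf5 are below WT in each table, KO2 is the lowest library for Esrrb and Tbx3 in each table, and Tfcp2l1 stays under 9 TPM.

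The orphan nuclear receptor genes Nr0b1 and Nr5a2 differed in direction. Nr0b1 encodes DAX1, which lacks the usual DNA-binding domain and binds other factors such as OCT4 in mouse embryonic stem cells. It had 536 and 497 CPM in KO8 and 389 and 394 CPM in KO7, against 248 and 327 CPM in WT. The WT libraries differed widely from each other, yet both lay below the knockout libraries. Nr0b1 rose by 0.85 ± 0.08 in KO8 (edgeR adjusted p = 1.4e-07) and by 0.45 ± 0.08 in KO7 (adjusted p = 0.00025). In the untreated TPM table it overlapped WT, with 344 and 353 TPM in HMCES-KO cells, against 349 and 308 TPM in WT cells (0.09 ± 0.06, limma adjusted p = 0.37, and 0.034 with edgeR on recovered reads). Over the treated tables it had 1918 to 2565 TPM in KO2 and 2099 to 2366 TPM in KO1, against 1822 to 2040 TPM in WT, and rose by 0.21 ± 0.05 in each line (limma adjusted p = 0.0055 in KO2 and 0.005 in KO1). It was called under SB431542 (0.30 ± 0.07, adjusted p = 0.021, lost without either WT library at 0.11 and 0.12 or without KO2 at 0.13) and LDN193189 (0.31 ± 0.07, adjusted p = 0.045). The LDN193189 call was lost without any 1 of 12 of the 16 libraries (adjusted p = 0.061 to 0.24).

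Nr5a2 encodes LRH1, which can stand in for OCT4 in reprogramming of mouse cells. It had 115 and 109 CPM in KO8 and 89.2 and 91.8 CPM in KO7, against 88.8 and 106 CPM in WT, so KO8 was above WT and KO7 lay within its range. The difference was 0.20 ± 0.08 in KO8 (edgeR adjusted p = 0.04) and -0.10 ± 0.08 in KO7 (adjusted p = 0.32). The KO8 call was lost with DESeq2 (0.11), without WT replicate 1 (0.37) and without any 1 of the 4 knockout libraries (0.07 to 0.25), while KO7 was called without WT replicate 1 (-0.22, adjusted p = 0.0094). Among the untreated TPM libraries it was lower, with 79.5 and 86.0 TPM in HMCES-KO cells, against 105 and 101 TPM in WT cells (-0.32 ± 0.06, limma adjusted p = 0.021, and 0.1 and 0.07 without WT replicate 1 or 2). It was also below WT in each treated table, with 44.6 to 51.4 TPM in KO2 and 38.3 to 59.6 TPM in KO1, against 54.4 to 90.5 TPM in WT. Nr5a2 fell by 0.57 ± 0.10 in KO2 (limma adjusted p = 0.00056) and by 0.55 ± 0.10 in KO1 (adjusted p = 0.00053). By table it fell under activin A (-0.96 ± 0.12, adjusted p = 0.00039) and under SB431542 (-0.58 ± 0.12, adjusted p = 0.0072, lost without WT replicate 1 at 0.058, WT replicate 2 at 0.053 or KO2 at 0.062).

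Several members separated the knockout lines. In KO8 against KO7, 7 of 10 members were called, 2 higher and 5 lower, where 28.2% of all genes tested were called (edgeR), and 4 were called without KO7 replicate 1 or without KO8 replicate 1. The largest gaps were in Tbx3 (-0.46 ± 0.06, adjusted p = 2.3e-06), Klf4 (-0.41 ± 0.05, adjusted p = 4.6e-06), Nr0b1 (0.40 ± 0.08, adjusted p = 0.00083, and 0.08 with DESeq2) and Zfp42 (-0.36 ± 0.05, adjusted p = 1.5e-05). Over the treated tables, KO2 against KO1 called 4 of 10, each lower in KO2, against 6.58% of all genes (limma). These were Tbx3 (-0.55 ± 0.11, adjusted p = 0.0057), Zfp42 (-0.37 ± 0.05, adjusted p = 0.0006), Esrrb (-0.37 ± 0.09, adjusted p = 0.016) and Klf2 (-0.31 ± 0.06, adjusted p = 0.0053). Esrrb in KO2 against KO1 was not called without the activin A library of KO2 (0.061) or the KO1 library of the BMP4 (0.077) or LDN193189 table (0.072).

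Part of these line differences ran along with chromosome 8. Klf2 and Zfp42 lie on chromosome 8 (mm10, Klf2 at 72319062 to 72321654 and Zfp42 at 43295067 to 43307009), where the median difference of 736 tested genes was -0.02 in KO8 and 0.26 in KO7. The median over the 696 chromosome 8 genes tested in treated cells was 0.01 in KO2 and 0.18 in KO1, and over 727 genes it was 0.23 in the untreated TPM table. The value of Zfp42 stayed within 0.16 of the chromosome 8 median in each of these 5 comparisons: less that median it was 0.00 in KO8, 0.08 in KO7, -0.16 in the untreated TPM table, -0.12 in KO2 and 0.08 in KO1. For Klf2 the same subtraction left 1.13 in KO8, 0.99 in KO7, 0.31 in the untreated TPM table, 1.02 in KO2 and 1.16 in KO1, so its difference from WT remained about as large except in the untreated TPM table. In KO8 against KO7 the chromosome 8 median was -0.31, and less that median Klf2 stood at 0.17 and Zfp42 at -0.05. In KO2 against KO1 the median was -0.19, which left -0.12 for Klf2 and -0.18 for Zfp42. The chromosome 1 medians of these line comparisons were 0.004 and 0.016. Tfcp2l1, Prdm14 and Nr5a2 lie on chromosome 1, whose median was -0.04 in KO8, -0.06 in KO7, -0.15 in the untreated TPM table, -0.13 in KO2 and -0.18 in KO1. Less the chromosome 1 median, Tfcp2l1 stood at 0.16 in KO8, 0.21 in KO7, -0.27 in the untreated TPM table, -0.77 in KO2 and -0.28 in KO1. The same values for Prdm14 were 0.08 in KO8, 0.30 in KO7, -0.11 in the untreated TPM table, -0.37 in KO2 and -0.05 in KO1. For Nr5a2 they were 0.25 in KO8, -0.05 in KO7, -0.16 in the untreated TPM table, -0.44 in KO2 and -0.38 in KO1. Whether copy number of these chromosomes differed between the cells was not tested.

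**Figure D4:**
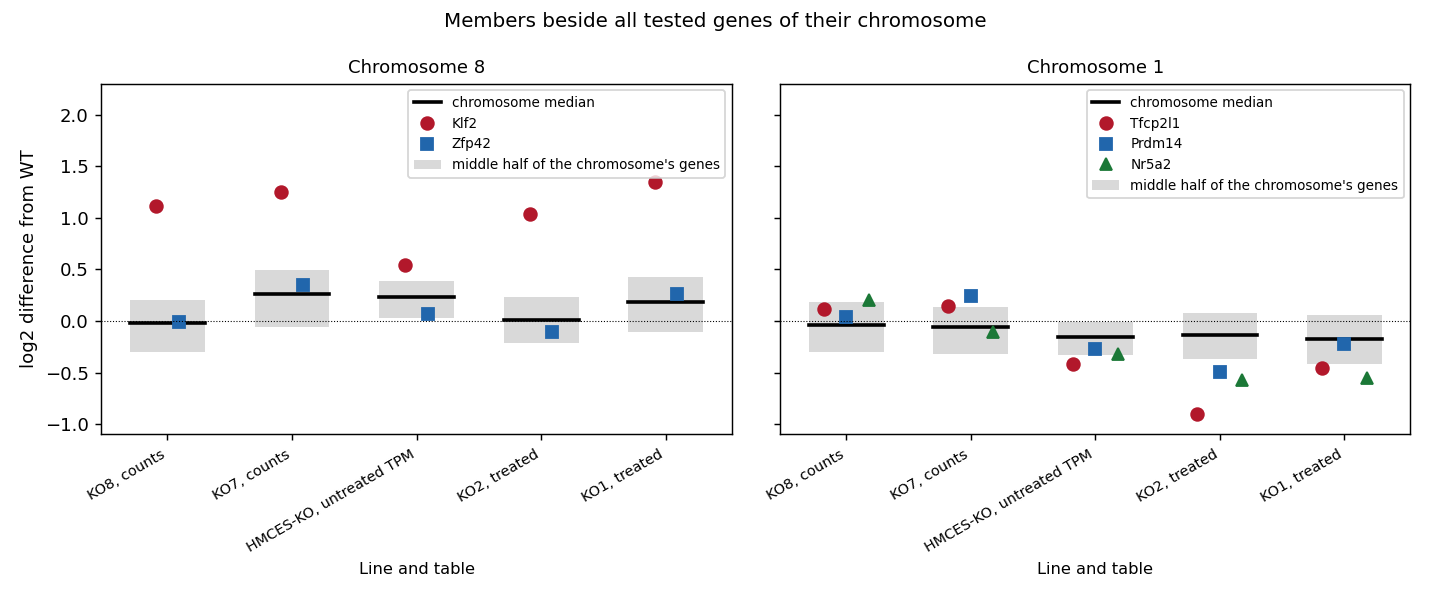
Log2 difference from WT (vertical axis) of the members on chromosome 8 (left) and chromosome 1 (right) by line and table (horizontal axis), beside the chromosome's tested genes: black lines are their medians and grey boxes run from the lower to the upper quartile. Zfp42 lies within the grey box in each comparison, while Klf2 lies above it by a wide margin except in the untreated TPM table.

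The HMCES-KO response of untreated cells was not the same in the count table and the TPM table. A joint edgeR fit on the counts and on the reads recovered from the untreated TPM table called 9 of 10 members for the difference of the responses, where 27.3% of 13626 genes tested were called, and 3 members without WT replicate 1 or without HMCES-KO replicate 1 of the TPM table. The response in the TPM table was lower for Klf2 (-0.58 ± 0.06, adjusted p = 1e-07), Nr0b1 (-0.50 ± 0.10, adjusted p = 0.0006) and Tfcp2l1 (-0.50 ± 0.06, adjusted p = 7.1e-07), and Zfp42 was not called (-0.04 ± 0.06, adjusted p = 0.7). The count table gives the mean of KO8 and KO7, the line of the TPM libraries is not stated, and experiment, WT libraries and any difference in line cannot be told apart.

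**Figure D5:**
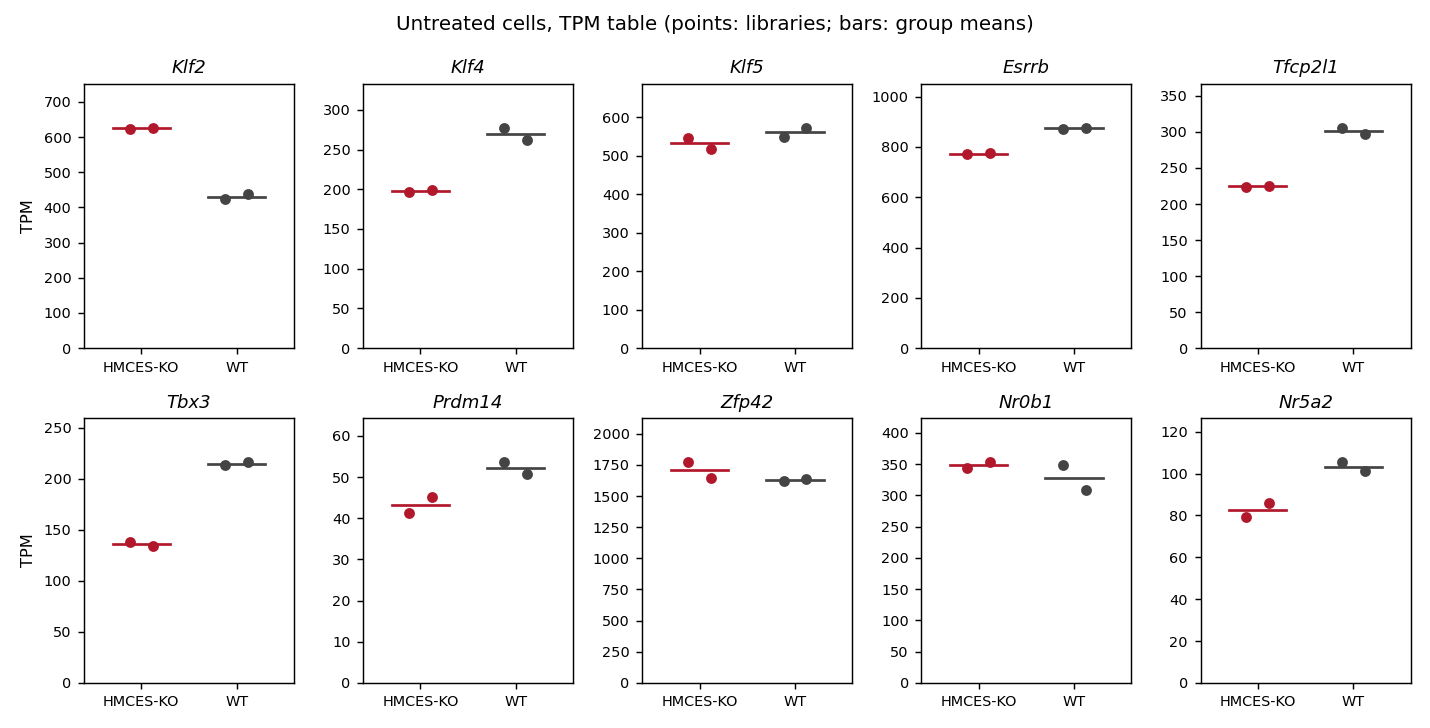
TPM (vertical axes, from 0) of the 10 genes in untreated HMCES-KO and WT libraries of the TPM table; points are libraries and bars group means, with 2 libraries a group. The HMCES-KO points are above WT for Klf2, at 623 and 627 TPM, and for Zfp42, and overlap WT for Nr0b1. They are below WT for Klf4, Klf5, Esrrb, Tfcp2l1, Tbx3, Prdm14 and Nr5a2. The groups did not overlap for 62.5% of all genes tested, and Zfp42, Klf5, Prdm14 and Nr0b1 were not called.

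The 2 h treatments gave no call for any member. Activin A against SB431542 called 0 of 10 members in HMCES-KO cells, where 0.103% of genes tested were called (13 genes), and 0 of 10 in WT cells, where 0.0159% were (2 genes). BMP4 against LDN193189 called 0 of 10 members in HMCES-KO cells, against 0.0238% of genes (3 genes), and 0 of 10 in WT cells, against 0.0317% (4 genes). At an unadjusted p under 0.05, limma gave 4 members and 619 of 12608 genes in HMCES-KO, and 0 members and 445 genes in WT, for activin A against SB431542. For BMP4 against LDN193189 it gave 2 members and 580 genes in HMCES-KO, and 0 members and 565 genes in WT, and edgeR on the recovered reads also called 0 members in each. The differences between the HMCES-KO and WT responses were called for 0 members and 0 of all genes (a share of 0%) in both pairs, with 1 member and 477 genes under an unadjusted p of 0.05 for activin A against SB431542 and 1 member and 624 genes for BMP4 against LDN193189. edgeR on the recovered reads called 0 genes and 1 gene for these differences.

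The widest gaps between a ligand and its inhibitor were in Prdm14 and Tbx3 under activin A against SB431542. Prdm14 had 62.2 TPM in KO2 and 83.4 TPM in KO1 with activin A, against 34.5 and 69.4 TPM with SB431542, and 89.9 and 91.7 TPM in WT with activin A, against 66.3 and 78.3 TPM with SB431542 (0.55 ± 0.25 in HMCES-KO and 0.33 ± 0.25 in WT, limma adjusted p = 1.0 for each). Tbx3 differed by 0.41 ± 0.24 in HMCES-KO and 0.51 ± 0.24 in WT (adjusted p = 1.0 for each), with 110.2 and 148 TPM with activin A in KO2 and KO1, against 80.1 and 114 TPM with SB431542. Differences of this size did not pass the test with 2 libraries a group, so the lack of a call does not show that these genes were unchanged. The smallest change that could be detected in them was not computed.

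Levels of several members fell into 2 sets of tables, activin A with SB431542 and BMP4 with LDN193189. In WT, Klf2 averaged 1058 and 981 TPM in the first set and 1372 and 1423 TPM in the second, Klf5 1504 and 1568 TPM in the first and 1093 and 1182 TPM in the second, and Prdm14 90.8 and 72.3 TPM in the first and 40.3 and 44.6 TPM in the second. The knockout difference of Nr5a2 was -0.96 and -0.58 in the first set and -0.39 and -0.33 in the second, while that of Klf2 was between 1.06 and 1.36 in all 4 tables. Treatment and table are the same split, so no test was made across sets.

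The members moved in blocs across the 16 treated libraries, each centred on the mean of its treatment. The 16 points are 4 KO2, 4 KO1 and 8 WT libraries, so the correlations hold the differences between genotypes and lines given above and are a description only. Klf4 and Klf5 were the closest pair (Pearson r = 0.96), followed by Tfcp2l1 with Klf5 (0.93) and Nr5a2 with Klf5 (0.93). Esrrb and Tbx3 correlated at 0.91 and Tbx3 and Zfp42 at 0.82. Klf2 ran opposite to Klf5 (-0.91), Nr5a2 (-0.88) and Klf4 (-0.87), and with Nr0b1 (0.87). Among all 12608 genes tested, the 3 most like Klf2 were Rbm34, Hsf2bp and Gpt2 (0.98 each). Those most like Klf4 were N4bp2, Hcfc1 and Tns3 (0.98 to 0.99), and those most like Klf5 were Akap2, Pakap and Eif4g1 (0.98 to 0.99). Zfp553, D5Ertd579e and Tmem108 were most like Esrrb (0.94 to 0.97), and Tdh, Prmt7 and Tmem108 most like Tbx3 (0.91 to 0.92). Ifitm2, Slco4a1 and Hmces itself were most like Tfcp2l1 (0.95 to 0.96), Zbtb41, Dmrtb1 and Mtmr6 most like Prdm14 (0.89 to 0.91), and Sall1, Fignl2 and Sfrp1 most like Zfp42 (0.95 to 0.98). Dock1, Lmnb1 and Stam were most like Nr0b1 (0.90 to 0.96), and Mmrn2, Spry4 and Capns1 most like Nr5a2 (0.96).

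Genes around the members in the network gave mixed directions. All shares here are read beside 40.6% of genes called in the mean of both knockout lines, 16% in the untreated TPM table and 34.5% in the mean of the treated tables. Of 4 core pluripotency genes, 2 rose in the mean of both lines (Sall4, 0.28 ± 0.06, edgeR adjusted p = 0.001, and Pou5f1, 0.17 ± 0.04, adjusted p = 0.0034). Nanog fell in untreated cells of the TPM table (-0.29 ± 0.03, adjusted p = 0.0051 with limma), and Pou5f1 rose in the treated mean (0.18 ± 0.04, adjusted p = 0.0061). Of 10 naive markers that are no member, 5 rose and 2 fell in the mean of both lines, among them Fbxo15, a ubiquitin ligase subunit (0.60 ± 0.05), and Dppa5a, an RNA-binding protein (-0.60 ± 0.05). In untreated cells of the TPM table, 2 rose and 2 fell, and in the treated mean 3 rose and 2 fell, with Tet2, an enzyme that oxidises 5-methylcytosine, at -0.73 ± 0.14. The list medians were 0.11, 0.14 and 0.08, beside -0.01, -0.06 and -0.04 over all genes tested.

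Of 8 LIF and STAT3 pathway genes, 3 rose and 3 fell in the mean of both lines (median -0.10), 2 fell in the untreated TPM table (median -0.10) and 6 fell in the treated mean (median -0.30). The kinase genes Pim1 (-0.44 ± 0.05) and Pim3 (-0.25 ± 0.04), both targets of STAT3, fell in the mean of both lines while the receptor genes Lifr (0.24 ± 0.05) and Il6st (0.20 ± 0.05) rose. In the treated mean Pim3 (-0.43 ± 0.07), Gbx2 (-0.25 ± 0.05), a homeobox target of STAT3, Lifr (-0.34 ± 0.09) and Pim1 (-0.41 ± 0.12) fell. Of 7 Wnt branch genes 2 rose and 1 fell in the mean of both lines (median -0.08), 1 fell in the untreated TPM table (median -0.03), and 1 rose and 3 fell in the treated mean (median -0.08). Tcf7, a Wnt-responsive transcription factor, was at -0.34 ± 0.07 in the mean of both lines and -0.53 ± 0.12 in the treated mean, where the repressor Tcf7l1 was at 0.43 ± 0.12.

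Of 6 ERK feedback genes 1 rose and 2 fell in the mean of both lines (median -0.07), 1 rose and 1 fell in the untreated TPM table (median -0.03), and 1 rose and 4 fell in the treated mean (median -0.36). Spry4 (-0.91 ± 0.05), Etv4 (-0.61 ± 0.04) and the ERK phosphatase gene Dusp6 (-0.48 ± 0.05) fell in the treated mean, whereas Dusp6 rose in the untreated TPM table (0.48 ± 0.04). Of 5 genes that PRDM14 represses in mouse cells, 2 rose and 1 fell in the mean of both lines (median 0.08), 2 fell in the untreated TPM table (median 0.11) and 2 rose in the treated mean (median 0.36). Dnmt3l, a cofactor of the DNA methyltransferases, fell by 0.65 ± 0.05 in the mean of both lines and by 0.78 ± 0.04 in the untreated TPM table, and Dnmt3a rose by 0.59 ± 0.08 in the treated mean. Of 8 genes of the exit from the naive state, 2 rose in the mean of both lines (median 0.14), 2 rose and 3 fell among 7 tested in the untreated TPM table (median -0.14), and 4 rose and 1 fell in the treated mean (median 0.12). Zic2, a zinc finger factor of the formative state, rose in all of them, by 1.45 ± 0.09, 0.87 ± 0.10 and 1.48 ± 0.07.

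Of 11 other KLF family genes 6 rose and 3 fell in the mean of both lines (median 0.20), 1 rose in the untreated TPM table (median 0.10), and 2 rose and 4 fell in the treated mean (median -0.12). Klf6 rose in all of them, by 0.81 ± 0.07, 1.11 ± 0.05 and 0.95 ± 0.10. Of 8 SMAD feedback genes and BMP targets 3 rose and 3 fell in the mean of both lines (median -0.01), 4 rose in the untreated TPM table (median 0.82), and 4 rose and 2 fell in the treated mean (median 0.28). Id2, a BMP target that inhibits helix-loop-helix factors, rose in all of them, by 1.61 ± 0.13, 2.02 ± 0.06 and 1.66 ± 0.11. The WT libraries are shared between the lines of a table, so the lines' values are not independent of each other.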

How the data were processed

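RNA sequencing of 26 mouse embryonic stem cell libraries was deposited as 6 tables. The count table held whole-number counts per gene made by the authors with featureCounts 2.0.1, per the file headers. The other 5 deposited tables held TPM computed by the authors. Bowtie2 2.3.3, SAMtools 1.9 and mm10 are named per the submitters' processing notes. The recorded command sets no strand option, so reads of overlapping and antisense genes cannot be told apart.

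Counts were tested with edgeR 4.0.16 (TMM, quasi-likelihood) in 3 groups of 2 libraries, on R 4.3.3. For TPM, limma 3.58.1 (trended prior) was run on log2(TPM + 1), a scale that understates changes of low genes, for genes that reached 1 TPM in 2 or more libraries. Treated libraries were rescaled to a common sum over the 12928 genes in all 4 tables (99.9% or more of their TPM) and fitted together. KO2 and KO1 came from an additive fit of treatment and line. P-values were adjusted by Benjamini-Hochberg over all genes tested, and a gene was called under 0.05. Whole reads were recovered from TPM for 100% of values, within 0.01 reads, and tested with edgeR as an alternative. DESeq2 1.42.0, other scalings and filters, a replicate block and leaving out each library were also tried. The tests were checked on simulated data.

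The members and gene lists were chosen with earlier results of these data known, and all members are reported; list genes are named from those called, up to 4 a list and comparison. Libraries of 1 knockout line deviated together across treated tables (r = 0.227 to 0.323), and WT numbers did not (-0.022 to 0.007). The joint fit of both untreated tables, the split of the treated tables, edgeR on treated reads and the chromosome comparison were added after seeing the data.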

Additional observations from a re-analysis of the deposited data

Results flagged for a closer look

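Several members differed between knockout lines by a test of the difference itself. In KO8 against KO7 (edgeR, 2 libraries each) the log2 differences were -0.46 for Tbx3, -0.41 for Klf4, 0.40 for Nr0b1, -0.36 for Zfp42, 0.31 for Nr5a2, -0.17 for Esrrb and -0.14 for Klf2. The Klf2 value had an adjusted p of 0.044, and of 0.096 with DESeq2, 0.053 with RLE size factors, 0.052 with the replicate block and 0.16 to 0.3 without any 1 knockout library. Esrrb was not called without any 1 knockout library (0.092 to 0.16), and Nr5a2 was not without KO7 replicate 1 (0.093) or KO8 replicate 1 (0.086). In KO2 against KO1 (limma, 4 libraries each) the differences were -0.55 for Tbx3, -0.37 for Zfp42, -0.37 for Esrrb and -0.31 for Klf2. The 4 libraries of a line, 1 per treatment, were taken as separate.

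Responses to the knockout in untreated cells also differed between the TPM table and the count table (edgeR). The difference of responses was -0.58 for Klf2, -0.50 for Nr0b1, -0.50 for Tfcp2l1, -0.36 for Prdm14, -0.31 for Nr5a2, -0.18 for Tbx3 and -0.17 for Esrrb, and 0.23 for Klf5 and 0.17 for Klf4. Only Klf2, Nr0b1 and Tfcp2l1 were called under each alternative and each left-out library. The Klf4 value was not called without any 1 of 9 of the 10 libraries (adjusted p = 0.056 to 0.43).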

How the results depend on the processing

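No called member changed sign under any alternative or left-out library. The number of members called was 3 with the knockout libraries as 1 group (mean of both lines). Without a trended prior it was 2 in the untreated TPM table, 1 under BMP4 and 1 under LDN193189. The replicate block pairs libraries of the same line, which takes the difference between lines out of the spread. With it, activin A gave 7 and the treated mean 9. Fitted alone, BMP4 gave 1 and LDN193189 gave 0, where the joint limma fit called 3 for each and had 6 members and 2181 of 12608 genes under an unadjusted p of 0.05 for LDN193189. The BMP4 and LDN193189 tables alone gave 3 for the treated mean, and there Esrrb (0.0144) and Tbx3 (0.1241) turned positive. For Nr0b1 in KO2 against KO1, equal library medians gave -0.0329 and edgeR on recovered reads -0.0216.

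Leaving out 1 library at a time gave 4 to 10 members in KO7, 4 to 9 in KO8 against KO7, 2 to 6 under SB431542, 1 to 3 under BMP4, 1 to 4 under LDN193189 and 3 to 9 for the difference of untreated responses. Values not called with all libraries crossed 0: Nr5a2 ran from -0.2239 to 0.0289 in KO7 and -0.0703 to 0.1826 in the mean of both lines, Zfp42 from -0.0563 to 0.0363 in KO8 and -0.0827 to 0.0171 for the difference of responses, and Tfcp2l1 from -0.0917 to 0.0304 in KO8 against KO7. In untreated TPM Nr0b1 ran from -0.0021 to 0.1768, Esrrb from -0.0655 to 0.0968 in KO1, and in KO2 against KO1 Nr0b1 from -0.0406 to 0.0627 and Nr5a2 from -0.1122 to 0.0624. The causes were not tested.

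Of the member values under changed settings, 606 kept direction and side of the threshold, 38 lost the call, 12 gained it and 4 turned sign; with a library left out these numbers were 1200, 104, 17 and 19. In the count and untreated TPM tables replicate numbers did not pair the libraries (r = -0.0245 to 0.0318), and with the replicate block KO7 still gave 9 members called. With 2 libraries a group, and 46 to 142 reads of Tfcp2l1 in treated cells, small differences may have been missed in the treated tables.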
